A study of Mus musculus with 30 samples.

Results

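The second week of differentiation of untreated IDG-SW3 cells was examined by comparing 3 RNA-seq libraries from day 14 with 3 from day 7. These are 6 of the 30 libraries of the series and of the 18 from untreated cells, chosen by the day and treatment in their labels. IDG-SW3 is 1 clonal mouse line of the osteoblast lineage that carries an interferon-inducible, temperature-sensitive T antigen, which drives division while the cells are expanded. Expansion was at 33 °C with 50 U/mL interferon-γ on collagen. Cells were seeded at 40000 per cm2 and later moved to 37 °C in medium with 50 µg/mL ascorbic acid and 4 mM β-glycerol phosphate and without interferon-γ. Neither group received hormone or vehicle, and the design text calls the 3 libraries of a day biological replicates. Both days therefore lie after the end of interferon-γ and of the lower temperature, and time since that change cannot be told apart from differentiation. Total RNA was depleted of ribosomal RNA and sequenced as directional libraries. The labels describe no step that selects poly(A) tails, which most histone mRNAs lack. The labels call the cells osteocytic. The osteocyte genes Dmp1 and Phex were at or below 0.089 and 0.031 RPKM (reads scaled to gene length and library size) in all 6 libraries. Of 21 osteocyte genes listed, 11 were abundant enough to be tested. Among them Gja1 measured 268, 307 and 351 RPKM on day 7 and 305, 501 and 437 on day 14. Of the osteoblast genes, Runx2 and Ibsp were at or below 0.448 and 0.691 RPKM. The type I collagen gene Col1a1 measured 80.8, 64.6 and 66.7 RPKM on day 7 and 90.3, 55.2 and 65.3 on day 14.

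A dividing cell passes through G1, in which cyclins D and E and the E2F factors prepare replication, then S phase, G2 and mitosis. In S phase the MCM helicase unwinds DNA, polymerases copy it, and replication-dependent histone genes supply the protein to package it. In mitosis, cyclin B with Cdk1 and the Polo and Aurora kinases drive chromosome condensation, kinetochore assembly, spindle formation and cytokinesis. Many of these transcripts are made only in the phase that uses them, and the genes of G2 and mitosis are known for CCAAT and CHR elements near their start sites. In bone, osteoblast precursors divide, and then leave the cycle as they mature and lay down matrix.

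The libraries were not equally rich in messenger RNA. Rows of ribosomal RNA took up 71.6% to 82.9% of the summed RPKM, with the highest share in day 14 replicate 1, and the median RPKM of the tested genes ran from 2.38 in that library to 3.58 in day 7 replicate 3. Between 7816 and 8953 genes reached 1 RPKM. The deposited values give no read counts, so the depth behind each value is unknown. The run numbers in the deposited file names place replicate 1 of both days in run 230, day 7 replicate 3 with day 14 replicates 2 and 3 in run 247, and day 7 replicate 2 in run 243. On the first principal component of the 6 libraries (39.4% of the variance), replicate 1 lay apart from its group on both days, at −3.62 against 22.1 and 24.7 on day 7 and at −35.9 against −6.51 and −0.78 on day 14. The part of the higher ribosomal share of day 14 replicate 1 in the results was not tested other than by leaving libraries out. For some lists and genes, results are therefore also given within run 230, within run 247 or without replicate 1 of both days. Where these are not given, the runs may still differ. For example, the histone gene Hist1h2bj changed by −3.04 within run 230 and by −1.73 within run 247.

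Of 9933 genes tested, 330 were lower on day 14 (3.32%) and 205 higher (2.06%), with 143 lower and 70 higher by more than 2-fold. The test was limma on log2(RPKM + 0.5) with each library centred on its median, sharing the spread of all 18 untreated libraries, and a gene was called at a Benjamini-Hochberg adjusted p below 0.05. Changes below are on this centred log2 scale, ± SE, n = 3 and 3. Without centring, the median of all genes moved by −0.13 and the split was 242 lower (2.44%) and 43 higher (0.433%), so the higher calls are to be read relative to that shift. All 535 called genes had the same direction within run 230 and within run 247. In 534 of them the centred values of the 2 days did not overlap, where 12% of all tested genes lay apart lower and 10.8% higher. The calls were made on these same libraries, so neither figure is an independent check of them. With the replicate number as a block 625 genes were lower (6.29%) and 442 higher (4.45%), all 535 among them. Without replicate 1 of both days 169 were lower (1.7%) and 100 higher (1.01%), 259 of them among the 535. The higher count was also 112, 122 and 128 without day 7 replicate 2, day 7 replicate 3 or day 14 replicate 2, and the lower count was 218 without day 14 replicate 2.

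Of the 330 lower genes, 138 (41.8%) belong to 10 lists of replication, histone, mitosis, cell cycle control and repair genes. These lists hold 222 tested genes, of which 138 fell and 1 rose, where 3.32% of all tested genes were lower. The lists were chosen with earlier results of these data known, so this share is not an independent result. In bulk RNA, fewer cells of a type and less RNA per cell cannot be told apart.

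Nearly all tested kinases and cyclins that drive mitosis fell. Of 17 tested, 15 were lower and none higher, with a median change of −1.0 where the median of all genes was 0.00. Cdk1, the kinase that starts mitosis, measured 12.2, 14.3 and 17.5 RPKM on day 7 and 3.75, 4.03 and 6.3 on day 14 (−1.43 ± 0.21, adjusted p = 0.000426). Its partner Ccnb1 (cyclin B1) measured 1.95, 2.08 and 1.88 RPKM on day 7 and 0.514, 0.623 and 0.762 on day 14 (−1.0 ± 0.18, adjusted p = 0.00252). For both genes every day 14 library lay under every day 7 library. The Polo-like kinase gene Plk1 went from 3.35, 2.35 and 2.05 RPKM to 0.733, 0.771 and 0.725 (−1.16 ± 0.18, adjusted p = 0.001). Aurka, which codes for Aurora A kinase of the spindle poles, measured 16.6, 19.1 and 21.4 RPKM on day 7 and 4.91, 7.45 and 8.68 on day 14 (−1.28 ± 0.17, adjusted p = 0.000277), with no overlap between the days. Nek2, a centrosome kinase gene, measured 4.88, 5.94 and 6.79 RPKM on day 7 and 1.92, 2.14 and 2.3 on day 14 (−1.15 ± 0.14, adjusted p = 7.78e-05). Ccnf, whose cyclin F is part of a ubiquitin ligase, measured 4.79, 6.64 and 6.72 RPKM on day 7 and 1.23, 2.07 and 2.81 on day 14 (−1.28 ± 0.16, adjusted p = 0.000159). The lowest day 7 library was above the highest day 14 library for Plk1, Nek2 and Ccnf as well. The spindle checkpoint kinase gene Bub1b measured 2.56, 2.66 and 2.39 RPKM on day 7 and 0.708, 0.544 and 0.693 on day 14 (−1.28 ± 0.17, adjusted p = 0.000239). Not called were Wee1, the kinase that holds Cdk1 inactive (−0.10), and Bub1 (−0.60). Without replicate 1 of both days 12 of the 17 were called lower.

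Structural genes of mitosis moved with the kinases. Of 26 kinetochore and centromere genes 17 were lower (median −0.99), of 22 spindle and cytokinesis genes 16 (median −0.84), and of 14 condensation and cohesion genes 9 (median −0.92), and none was higher. Mki67, the common marker of cycling cells that coats mitotic chromosomes, measured 29.3, 23.3 and 28.2 RPKM on day 7 and 8.58, 9.94 and 8.96 on day 14 (−1.37 ± 0.19, adjusted p = 0.00033). Top2a, the topoisomerase that untangles sister chromatids, measured 12, 9.94 and 11.7 RPKM on day 7 and 2.75, 3.63 and 4.28 on day 14 (−1.42 ± 0.14, adjusted p = 1.67e-05). In both genes the days were widely separated, and the 3 libraries of each day lay close together. The condensin gene Ncapg measured 5.05, 3.81 and 4.32 RPKM on day 7 and 1.11, 1.34 and 0.835 on day 14 (−1.50 ± 0.19, adjusted p = 0.000159). Esco2, the cohesin acetyltransferase, measured 3.04, 3.31 and 3.45 RPKM on day 7 and 0.629, 1.03 and 0.799 on day 14 (−1.40 ± 0.17, adjusted p = 0.000108). Cdca2, which recruits a phosphatase to chromatin, measured 1.95, 1.92 and 1.93 RPKM on day 7 and 0.427, 0.51 and 0.621 on day 14 (−1.13 ± 0.15, adjusted p = 0.000154). These 3 genes were all at or below 1.34 RPKM on day 14 and above that on day 7.

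Among kinetochore genes, Cenpf measured 4.55, 4.75 and 5.28 RPKM on day 7 and 1.36, 2.27 and 2.21 on day 14 (−1.02 ± 0.13, adjusted p = 0.000132). Its motor partner Cenpe measured 3.76, 3.22 and 4.09 RPKM on day 7 and 1.21, 1.59 and 1.46 on day 14 (−1.0 ± 0.14, adjusted p = 0.00033). Cenpl of the inner kinetochore measured 6.3, 4.03 and 4.1 RPKM on day 7 and 1.18, 0.673 and 1.79 on day 14 (−1.53 ± 0.25, adjusted p = 0.00126). The days did not overlap for these 3 genes, nor for Ska1, which couples kinetochores to microtubules and changed by −1.15 ± 0.18 (adjusted p = 0.000746). Among spindle genes, Ckap2, a microtubule-associated protein, was the most abundant of those named and measured 47.8, 56 and 65.4 RPKM on day 7 and 15.5, 28.2 and 26.7 on day 14 (−1.15 ± 0.16, adjusted p = 0.000263). The kinesin genes Kif20a, Kif14 and Kif22 changed by −1.10 ± 0.12, −1.17 ± 0.17 and −1.26 ± 0.20, with adjusted p = 2.54e-05, 0.000355 and 0.00124. Kif22 moves chromosome arms and measured 6.87, 9.13 and 11.2 RPKM on day 7 and 1.89, 3.93 and 3.92 on day 14. Of 11 members of the anaphase-promoting complex list, 1 was called: its activator gene Cdc20, at 3.77, 3.27 and 3.7 RPKM on day 7 and 1.05, 1.18 and 1.86 on day 14 (−1.02 ± 0.17, adjusted p = 0.0016). The core subunits Anapc1 (−0.03), Anapc5 (0.04) and Cdc16 (0.08) lay close to the median of all genes, with Cdc16 the highest of the list. The median of the 11 was −0.30, and with the replicate block 2 were called lower. Without replicate 1 of both days the kinetochore, spindle and condensation counts were 8, 8 and 8, and the medians of the 3 lists within run 247 alone were −0.81, −0.87 and −0.84.

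**Figure D1:**
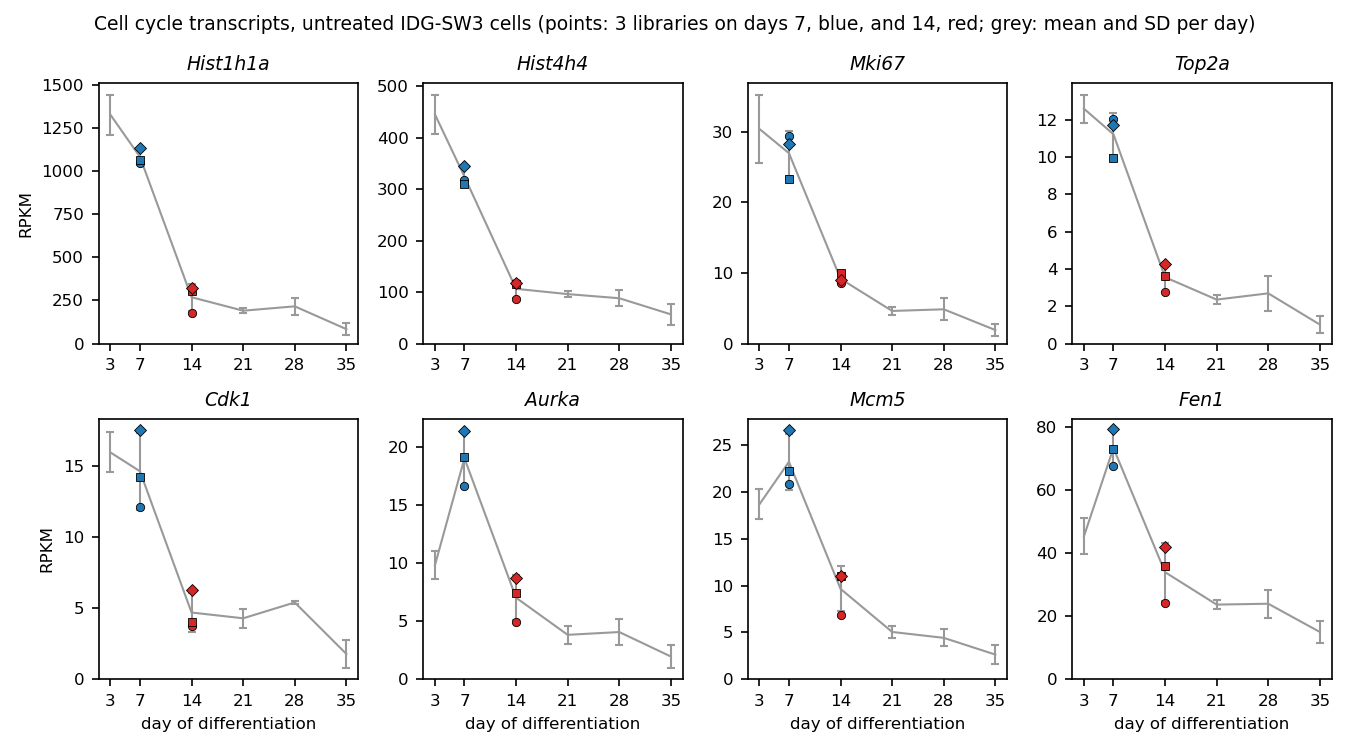
RPKM of 8 cell cycle genes (y axes from 0) by day of differentiation (x axis), with points for the 3 libraries of day 7 in blue and of day 14 in red (circle, square and diamond for replicates 1, 2 and 3) and a grey line for the mean ± SD of each of the 6 days. In each panel the day 14 points lie below all day 7 points, as for Hist1h1a at 178, 306 and 321 against 1047, 1063 and 1136 RPKM.

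Genes of DNA replication fell in part. Of 19 licensing genes 10 were lower (median −0.71) and of 23 genes of DNA synthesis and nucleotide supply 11 (median −0.64), again with none higher. Mcm5, a subunit of the replicative helicase, measured 20.8, 22.3 and 26.6 RPKM on day 7 and 6.87, 11.1 and 11 on day 14 (−1.12 ± 0.13, adjusted p = 7.54e-05). Dbf4, the activating subunit of the Cdc7 kinase that fires origins, measured 27.1, 28.8 and 29.9 RPKM on day 7 and 9.36, 11.9 and 13.3 on day 14 (−1.16 ± 0.11, adjusted p = 1.32e-05). Gmnn codes for geminin, which blocks relicensing, and measured 16.2, 15 and 19.6 RPKM on day 7 and 6.42, 7.44 and 7.13 on day 14 (−1.08 ± 0.21, adjusted p = 0.00442). In all 3 genes the days were apart. Clspn, the replication checkpoint adaptor, measured 2.47, 3.46 and 4.56 RPKM on day 7 and 0.77, 1.67 and 1.51 on day 14 (−1.01 ± 0.20, adjusted p = 0.00502). Fen1, the flap nuclease of lagging strand maturation, was the most abundant replication gene named, at 67.5, 73 and 79.1 RPKM on day 7 and 24, 35.7 and 41.9 on day 14 (−1.01 ± 0.11, adjusted p = 3.59e-05). Day 14 replicate 1 was its lowest library and all 3 of day 14 were below the lowest of day 7. Tk1, the thymidine kinase of nucleotide salvage, changed by −1.23 ± 0.20 (adjusted p = 0.00138). Chaf1b, a chaperone that places histones behind the fork, measured 2.9, 2.88 and 3.98 RPKM on day 7 and 0.854, 1.19 and 0.732 on day 14 (−1.27 ± 0.21, adjusted p = 0.0016). The sliding clamp gene Pcna was not called: it measured 27.1, 17.3 and 18.8 RPKM on day 7 and 10.2, 9.57 and 9.61 on day 14 (−0.91 ± 0.27, adjusted p = 0.0642). Nor was Mcm2, at 11.2, 10.2 and 12.1 RPKM on day 7 and 5.4, 7.74 and 8.18 on day 14 (−0.51 ± 0.16, adjusted p = 0.0895). With the replicate block both were called lower (adjusted p = 0.00278 and 0.0487). With the replicate block both lists had 15 lower genes, and without replicate 1 of both days 5 and 6. The repair and checkpoint list had 2 of 12 lower, Brip1 (−1.17 ± 0.21, adjusted p = 0.003) and Rad51ap1 (−0.93 ± 0.24, adjusted p = 0.0302), helicase and recombination factors. The Brip1 call was lost without replicate 1 of both days (adjusted p = 0.0512), and the Rad51ap1 call in 5 of the 6 omissions of a single library.

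Replication-dependent histones had the lowest median of all lists with at least 3 tested members. Of 56 tested members (of 66 listed, 62 in the files), 50 were lower and none higher, with a median of −1.66 and a range from −2.27 to −0.43. The median was −1.75 within run 230 and −1.49 within run 247, and 35 of the 56 were called lower without replicate 1 of both days. The summed RPKM of the listed histones was 5292, 5409.7 and 5657 on day 7 and 1223.5, 1795 and 2057 on day 14. Hist1h1a, the linker histone H1.1 gene and the most abundant one named, measured 1047, 1063 and 1136 RPKM on day 7 and 178, 306 and 321 on day 14 (−1.93 ± 0.15, adjusted p = 1.59e-06). Hist4h4, which codes for the core histone H4, measured 319, 309 and 345 RPKM on day 7 and 85.7, 115 and 118 on day 14 (−1.49 ± 0.12, adjusted p = 1.59e-06). Hist1h1c, the linker histone H1.2 gene, measured 278, 271 and 286 RPKM on day 7 and 89.6, 112 and 134 on day 14 (−1.20 ± 0.11, adjusted p = 7.29e-06). Day 14 replicate 1 was the lowest library for all 3, and the days did not overlap.

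Among the H2B genes, Hist1h2bj measured 32.3, 33.6 and 29.1 RPKM on day 7 and 2.66, 7.19 and 8.76 on day 14 (−2.27 ± 0.23, adjusted p = 1.64e-05). Hist1h2bm measured 109.6, 85.7 and 96 RPKM on day 7 and 20.0, 18.2 and 22.8 on day 14 (−2.1 ± 0.27, adjusted p = 0.000137). Hist1h2bn measured 86, 104 and 102 RPKM on day 7 and 16.1, 22.4 and 28.3 on day 14 (−2.01 ± 0.16, adjusted p = 1.59e-06). All 3 had every day 14 library under every day 7 library. Hist1h2bp was less abundant, at 10.3, 11.7 and 11 RPKM on day 7 and 1.09, 2.45 and 3.41 on day 14 (−2.0 ± 0.27, adjusted p = 0.000277). The H3 gene Hist1h3e measured 47.6, 48.5 and 42.6 RPKM on day 7 and 9.36, 9.54 and 10.8 on day 14 (−2.04 ± 0.22, adjusted p = 3.72e-05). The H4 gene Hist1h4j measured 7.69, 9.36 and 9.84 RPKM on day 7 and 0.784, 1.03 and 3.33 on day 14 (−2.14 ± 0.34, adjusted p = 0.001). The days were apart in these genes too, which the rule that named them required. The H2A genes Hist1h2an and Hist1h2ag changed by −1.97 ± 0.32 and −1.94 ± 0.37 (adjusted p = 0.00124 and 0.00446). Hist1h2ab measured 22.8, 52.8 and 49.8 RPKM on day 7 and 2.05, 9.84 and 17.1 on day 14 (−2.23 ± 0.61, adjusted p = 0.0428), the largest SE of the histones named, and lost its call in 4 of the 6 omissions. Core histone genes of 1 cluster are near-identical copies, so how reads were divided among them is uncertain.

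Histone variants made outside S phase gave fewer calls. Of 8 tested, 2 were lower (median −0.16). H2afx, whose mRNA exists in both a histone-type and a polyadenylated form, measured 183, 251 and 236 RPKM on day 7 and 25, 58.9 and 82.7 on day 14 (−2.02 ± 0.28, adjusted p = 0.00033). The linker variant H1fx measured 5.73, 8.95 and 8.64 RPKM on day 7 and 2.1, 3.98 and 4.44 on day 14 (−0.95 ± 0.24, adjusted p = 0.027), a call lost in 4 of the 6 omissions. The replacement histones H3f3a (−0.20), H3f3b (−0.11) and H1f0 (0.01) were not called.

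Control genes of G1 moved unevenly. Of 22 tested, 7 were lower and 1 higher (median −0.44), and 4 were lower and none higher without replicate 1 of both days. Ccne1, the cyclin E1 that starts S phase, measured 20.4, 23.5 and 25.1 RPKM on day 7 and 7.18, 10.1 and 10.5 on day 14 (−1.15 ± 0.12, adjusted p = 2.29e-05). Foxm1, the activator of mitotic genes, measured 2.74, 2.21 and 3.62 RPKM on day 7 and 0.692, 0.874 and 1.3 on day 14 (−1.08 ± 0.19, adjusted p = 0.00246). The growth regulator Myc measured 6.95, 6.3 and 7.81 RPKM on day 7 and 2.37, 3.74 and 3.67 on day 14 (−0.89 ± 0.16, adjusted p = 0.00222). In these 3 genes the days did not overlap. E2f1, an activator of S phase genes, measured 17.2, 21 and 23 RPKM on day 7 and 8.71, 14.7 and 15.9 on day 14 (−0.52 ± 0.14, adjusted p = 0.046) and kept its call in 1 of the 6 omissions. E2f8 stood at 2.17, 2.78 and 3.36 RPKM on day 7 and 0.487, 1.37 and 1.74 on day 14 and was not called (−0.88 ± 0.25, adjusted p = 0.0521), except with the replicate block (adjusted p = 0.00315). Mybl2 and E2f2 were at or below 0.127 and 0.337 RPKM and were not tested. The D cyclins of early G1 gave other values. Ccnd1 measured 29.8, 32.3 and 29.5 RPKM on day 7 and 19.2, 20.6 and 28.3 on day 14, with no call (−0.31 ± 0.14, adjusted p = 0.259). Ccnd2 measured 26, 28 and 31.3 RPKM on day 7 and 28.7, 38.5 and 41.8 on day 14. It was called higher (0.46 ± 0.11, adjusted p = 0.02), but not without centring (adjusted p = 0.668) and not in 5 of the 6 omissions.

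Genes of cyclin-dependent kinase inhibitors and growth arrest gave no call in either direction among 23 tested (limma, adjusted p; 3 at an unadjusted p below 0.05; median −0.02), and 1 lower and 2 higher with the replicate block. Among all tested genes only 5.39% were called, so a list of this size would hold few calls in any case. With the block 6.29% of all tested genes were lower and 4.45% higher. The p21 gene Cdkn1a measured 217, 242 and 289 RPKM on day 7 and 177, 314 and 356 on day 14 (0.26 ± 0.17, adjusted p = 0.511). Cdkn1b (p27) measured 52.1, 50.0 and 55.9 RPKM on day 7 and 40.5, 54.1 and 47.5 on day 14 (−0.03 ± 0.15, adjusted p = 0.968). Cdkn2a (p16 and p19ARF) measured 259, 244 and 327 RPKM on day 7 and 208, 282 and 360.2 on day 14 (0.14 ± 0.14, adjusted p = 0.732). The days overlapped for all 3. Cdkn1c (p57) measured 87, 161 and 171 RPKM on day 7 and 69.3, 191 and 199.5 on day 14 (0.18 ± 0.40, adjusted p = 0.916), with replicate 1 the lowest library on both days. Cdkn2c (p18) measured 21.1, 19.6 and 23.6 RPKM on day 7 and 12.8, 15.8 and 15.3 on day 14, and its day 14 libraries were all lower (−0.41 ± 0.13, adjusted p = 0.0844, and 0.0138 with the replicate block).

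Promoter windows are shown for 6 of the genes called lower: 3 of mitosis, 1 of replication and 2 histones. Each runs from 250 bases before to 50 bases after the start site, from RefSeq on GRCm38.p6, 5′ to 3′ on the gene's strand. Cdk1 is at chr10:69352863-69353162 (minus strand), Plk1 at chr7:122159185-122159484 (plus), Cdc20 at chr4:118437294-118437593 (minus), Mcm5 at chr8:75109259-75109558 (plus), Hist1h1a (RefSeq H1f1) at chr13:23763418-23763717 (plus) and Hist1h2bm (RefSeq H2bc14) at chr13:21721794-21722093 (plus). Capitals mark matches on either strand to the CCAAT box (CCAAT), the CHR element (TTTGAA or TTCGAA), E2F site letters (TTTCCCGC, TTTGGCGC or TTTCGCGC) and the TATA box (TATAAA).
Cdk1: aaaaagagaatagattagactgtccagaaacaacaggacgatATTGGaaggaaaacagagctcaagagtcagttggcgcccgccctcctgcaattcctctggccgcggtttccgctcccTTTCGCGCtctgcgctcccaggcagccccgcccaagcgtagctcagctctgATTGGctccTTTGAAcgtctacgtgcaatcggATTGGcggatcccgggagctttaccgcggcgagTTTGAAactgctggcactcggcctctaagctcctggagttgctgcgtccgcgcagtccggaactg
Plk1: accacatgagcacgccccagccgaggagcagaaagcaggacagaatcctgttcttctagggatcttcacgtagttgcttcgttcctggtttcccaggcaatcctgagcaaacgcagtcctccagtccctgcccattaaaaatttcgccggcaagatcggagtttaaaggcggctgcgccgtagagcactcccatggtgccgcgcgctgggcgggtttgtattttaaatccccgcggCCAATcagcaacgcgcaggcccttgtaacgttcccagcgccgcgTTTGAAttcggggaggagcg
Cdc20: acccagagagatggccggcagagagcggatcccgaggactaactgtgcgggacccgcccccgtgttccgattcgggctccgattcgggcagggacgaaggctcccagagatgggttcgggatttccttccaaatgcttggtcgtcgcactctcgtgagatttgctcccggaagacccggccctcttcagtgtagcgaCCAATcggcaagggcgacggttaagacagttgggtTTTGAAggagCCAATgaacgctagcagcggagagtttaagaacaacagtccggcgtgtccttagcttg
Mcm5: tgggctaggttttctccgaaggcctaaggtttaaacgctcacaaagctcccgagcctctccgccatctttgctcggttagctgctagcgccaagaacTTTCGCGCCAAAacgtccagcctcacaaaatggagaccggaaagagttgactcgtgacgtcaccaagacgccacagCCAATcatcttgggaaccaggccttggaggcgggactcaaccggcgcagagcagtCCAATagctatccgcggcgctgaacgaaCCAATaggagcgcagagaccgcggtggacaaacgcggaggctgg
Hist1h1a: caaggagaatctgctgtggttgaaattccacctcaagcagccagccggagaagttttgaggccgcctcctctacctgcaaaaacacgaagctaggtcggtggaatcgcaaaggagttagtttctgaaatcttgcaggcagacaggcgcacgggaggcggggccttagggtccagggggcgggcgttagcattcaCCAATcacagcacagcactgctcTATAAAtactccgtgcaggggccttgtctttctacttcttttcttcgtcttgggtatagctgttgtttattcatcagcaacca
Hist1h2bm: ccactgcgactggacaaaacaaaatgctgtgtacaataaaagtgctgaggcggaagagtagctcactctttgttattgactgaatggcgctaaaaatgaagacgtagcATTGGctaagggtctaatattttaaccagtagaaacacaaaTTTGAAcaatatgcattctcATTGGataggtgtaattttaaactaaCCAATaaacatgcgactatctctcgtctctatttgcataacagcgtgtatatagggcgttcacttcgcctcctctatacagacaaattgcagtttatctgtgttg

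Of the 6 windows, those of the 3 mitotic genes and of Hist1h2bm hold both CCAAT and CHR letters. In Cdc20 they lie from −53 to −49 and −8 to −4 (CCAAT) and from −18 to −13 (CHR) relative to the start. The Mcm5 window holds CCAAT letters and 2 overlapping E2F matches, one on each strand, from −153 to −146 and −149 to −142. Hist1h1a has a TATA box from −33 to −28 and a CCAAT box from −56 to −52, while the letters TATAAA are not in the Hist1h2bm window, which holds 3 CCAAT matches and CHR letters from −101 to −96. Over whole lists, CHR letters were in 61.8% and CCAAT letters in 73.7% of the 76 mitosis genes with a window (of 90 tested), against 19.4% and 37.9% of the 27025 RefSeq windows. The replication lists had CHR letters in 23.5% and CCAAT letters in 58.8% of 34 windows (of 42 genes). E2F letters were in 35.3% of the replication windows, 9.21% of the mitosis windows and 1.91% of all windows. Of the 50 histone windows (of 56 genes), 84% held CCAAT, 50% CHR and 20% E2F letters. When a narrower window around the start site was read, CHR letters were in 22% of the histone windows. They were then in 53.9% of the mitosis windows, 11.8% of the replication windows and 8.68% of all windows. The TATA box was in 62% of the histone windows and in 14.2% of all windows. Only the first window listed for a gene was read, and a match in letters is a description, not a site.

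**Figure D2:**
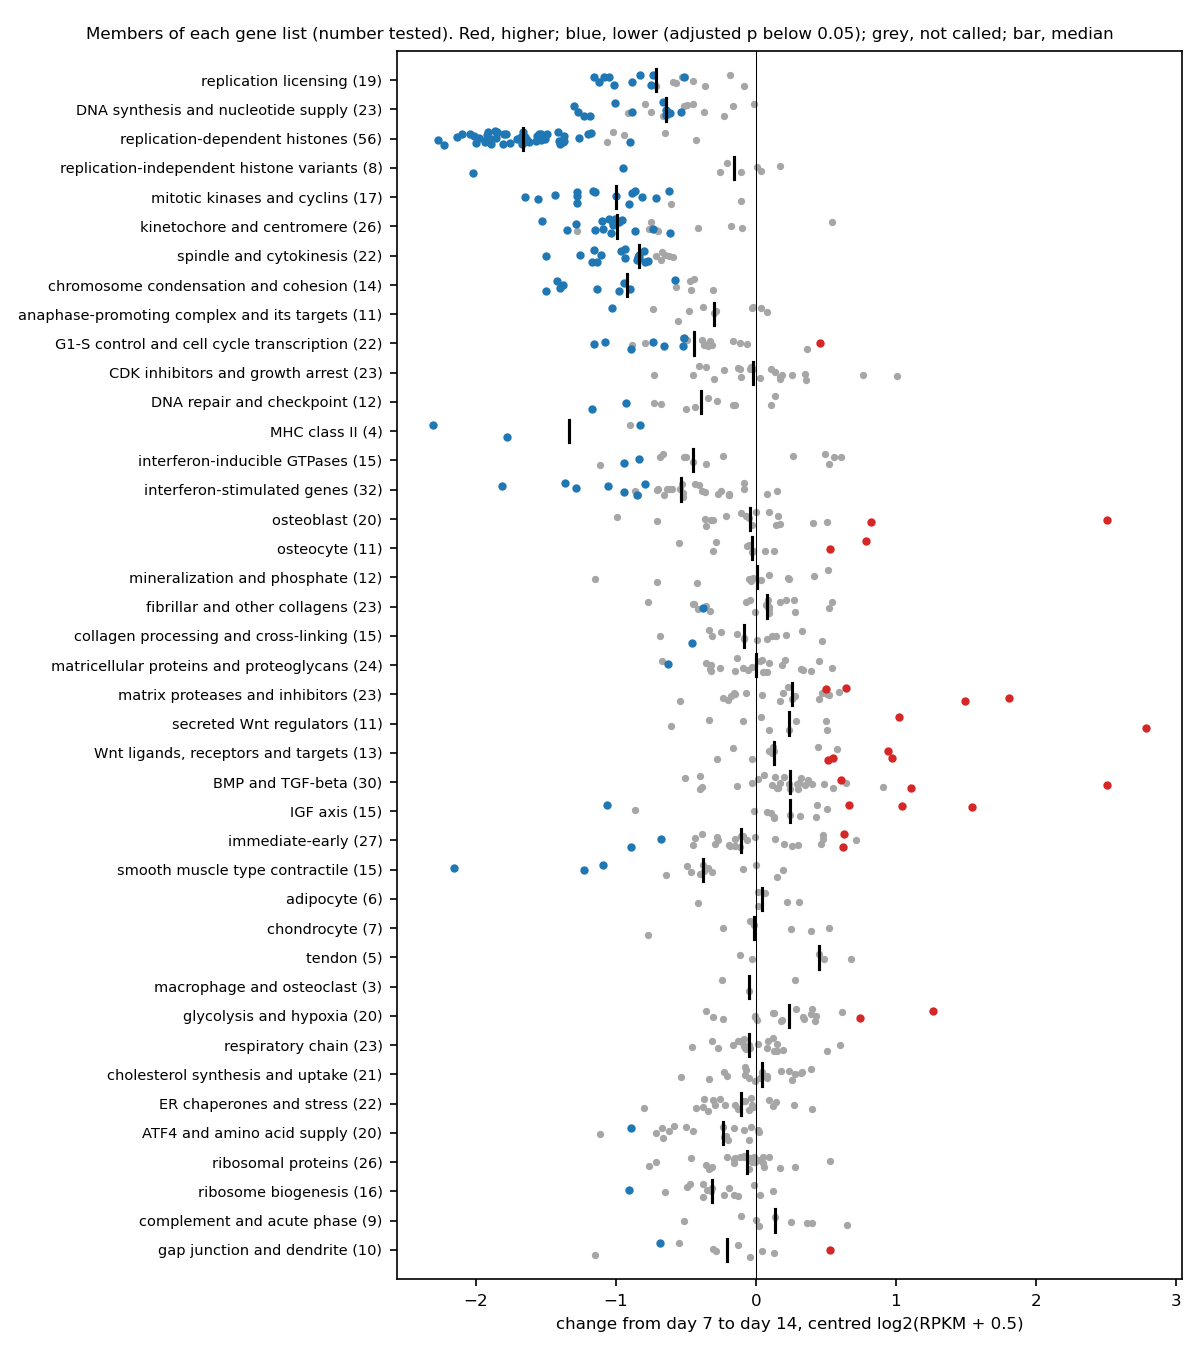
Change from day 7 to day 14 on the centred log2 scale (x axis) of each tested member of the gene lists with at least 3 tested members (y axis, number tested in brackets), with called members in red (higher) or blue (lower), others in grey and a bar for the list's median. The replication-dependent histones lie furthest to the left, with a median of −1.66, and the CDK inhibitor list is centred on −0.02.

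The steps before and after share the day 7 or the day 14 libraries with this one and are given beside it. The median of the mitotic kinases and cyclins changed by −0.25 from day 3 to 7, −1.0 from day 7 to 14 and −0.14 from day 14 to 21. For the replication-dependent histones these medians were −0.45, −1.66 and −0.04, and for licensing genes 0.00, −0.71 and −0.31. The difference between steps was tested in the same model. The change of the second week was more negative than that of days 3 to 7 for 9 of 17 mitotic kinase genes, 15 of 56 histones and 4 of 19 licensing genes, where 7.43% of all tested genes passed in that direction. Against days 14 to 21, 20 of 56 histones passed, 1 of 17 mitotic kinase genes and no licensing gene, where 0.725% of all genes passed. Without centring, 299 genes in place of 738 passed against the step before and 7 in place of 72 against the step after. Hist1h1a passed both tests (−1.52 ± 0.26, adjusted p = 0.00116 against the step before, −1.67 ± 0.26, adjusted p = 0.00355 against the step after). So did Top2a (−1.14 ± 0.25, adjusted p = 0.00656, and −1.12 ± 0.25, adjusted p = 0.045). Aurka passed against the step before (−2.08 ± 0.30, adjusted p = 0.000391), in which it had risen from 9.82 ± 1.24 RPKM on day 3 to 19 ± 2.4 on day 7, and not against the step after (−0.69 ± 0.30, adjusted p = 0.447). Ccne1 passed both (−1.98 ± 0.21, adjusted p = 3.44e-05, and −1.21 ± 0.21, adjusted p = 0.00811). Mki67 passed against the step before (−1.10 ± 0.33, adjusted p = 0.0374) and not against the step after (−0.65 ± 0.33, adjusted p = 0.564), where its level went on to 4.61 ± 0.526 RPKM on day 21.

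**Figure D3:**
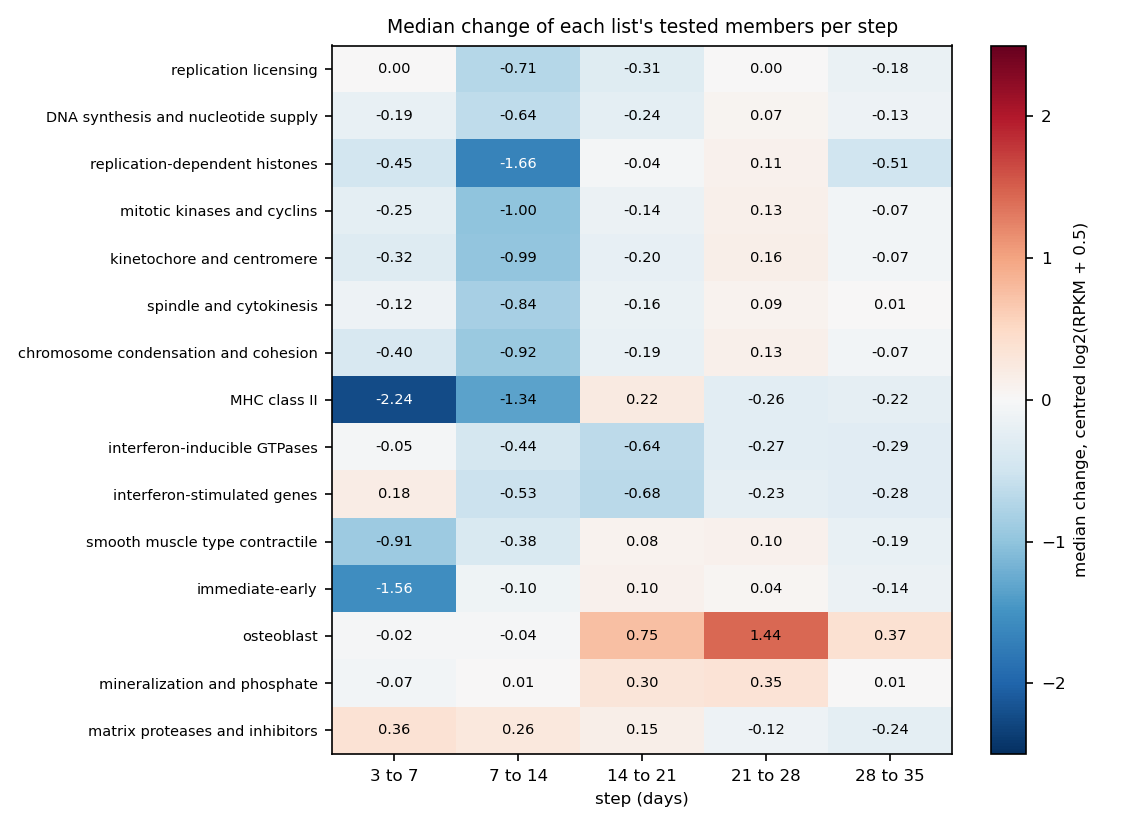
Median change (colour and printed value, centred log2 scale) of the tested members of 15 gene lists (rows) in each of the 5 steps between sampled days (columns). Each cell cycle row has its lowest value in the step from day 7 to day 14. The MHC class II row has its lowest values in the first 2 steps (−2.24, then −1.34), and smaller changes of either sign after them. The osteoblast row is near 0 in the step from day 7 to day 14 (−0.04) and positive in the steps after it.

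The class II antigen genes, which interferon-γ switches on, fell. Of 4 tested, 3 were lower (median −1.34), and 2 without centring or without replicate 1 of both days. H2-Aa, the class II alpha chain, measured 21.8, 18.4 and 23.4 RPKM on day 7 and 2.4, 3.97 and 4.4 on day 14 (−2.31 ± 0.21, adjusted p = 8.91e-06), after 96.4 ± 6.45 RPKM on day 3. Cd74, the invariant chain, measured 2.67, 1.12 and 2.18 RPKM on day 7 and 0.166, 0.16 and 0.098 on day 14 (−1.78 ± 0.24, adjusted p = 0.000239). In both genes the day 14 libraries were all far under those of day 7. H2-Ab1 measured 2.28, 0.957 and 1.96 RPKM on day 7 and 0.351, 0.606 and 0.96 on day 14 (−0.82 ± 0.23, adjusted p = 0.0482). The RPKM of the 2 days met, at 0.957 and 0.96, and were apart only after centring, and the call was lost in 5 of the 6 omissions. The fall of H2-Aa was larger than its change from day 14 to 21 (−3.01 ± 0.37, adjusted p = 0.000656) while the difference from the step before was not called (−0.03 ± 0.37, adjusted p = 0.971).

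Of 32 interferon-stimulated genes 7 were lower and none higher (median −0.53, but −0.87 within run 230 and −0.35 within run 247), and 3 without replicate 1 of both days. The class I antigen gene H2-K1 measured 176, 182 and 213 RPKM on day 7 and 67.9, 88.2 and 96.7 on day 14 (−1.06 ± 0.12, adjusted p = 5.36e-05). H2-D1 of the same family measured 1074, 1132 and 1338 RPKM on day 7 and 409, 616 and 699.5 on day 14 (−0.94 ± 0.11, adjusted p = 9.17e-05). Both had separate groups, and both have near-identical relatives with which reads can be shared. Zbp1, a sensor of foreign nucleic acid, measured 9.08, 8.94 and 9.24 RPKM on day 7 and 2.23, 2.52 and 4.34 on day 14 (−1.36 ± 0.26, adjusted p = 0.00382). Nlrc5, the class I transactivator, measured 4.08, 3.07 and 3.51 RPKM on day 7 and 1.53, 1.32 and 2.13 on day 14 (−0.79 ± 0.17, adjusted p = 0.00967). Without replicate 1 of both days their adjusted p was 0.0536 and 0.0521. Nlrc5 also lost its call in 2 of the 6 omissions. Of 15 interferon-inducible GTPases 2 were lower (median −0.44, but −0.72 within run 230 and −0.26 within run 247). With the replicate block 7 were lower and 2 higher, and without replicate 1 of both days none was called. Among all tested genes 3.32% were lower, and with the block 6.29% were lower and 4.45% higher. The 2 GTPase genes called lower without the block were Tgtp1 (−0.94 ± 0.23, adjusted p = 0.0205) and Mx1 (−0.84 ± 0.23, adjusted p = 0.048), which lost their calls in 4 and 5 of the 6 omissions. Iigp1, also of this list, measured 141, 110.4 and 121 RPKM on day 7 and 45.7, 53.1 and 58 on day 14 and was not called (−1.11 ± 0.34, adjusted p = 0.0748), except with the replicate block (adjusted p = 0.00687).

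Most bone genes were not called in this week. Of 20 osteoblast genes tested, 2 rose and none fell (median −0.04), and with the replicate block 3 rose and 2 fell. Among all tested genes 2.06% rose and 3.32% fell, and with the block 4.45% and 6.29%. Sp7, the osteoblast transcription factor osterix, measured 3.52, 3.98 and 2.39 RPKM on day 7 and 2.8, 2.42 and 3.23 on day 14 (−0.05 ± 0.22, adjusted p = 0.966). Alpl, the mineralizing phosphatase, measured 19.1, 14.4 and 13.5 RPKM on day 7 and 8.5, 8.25 and 8.72 on day 14 (−0.71 ± 0.20, adjusted p = 0.0552). Bglap (osteocalcin) measured 3.76, 3.12 and 3.74 RPKM on day 7 and 1.09, 1.49 and 1.52 on day 14 (−0.99 ± 0.33, adjusted p = 0.1). For Alpl and Bglap every day 14 library was below day 7, without a call, and both were called lower with the replicate block (adjusted p = 0.00822 and 0.0351). Both changes were more negative than those of the following step (−2.93 ± 0.35, adjusted p = 0.000656 for Alpl, and −4.32 ± 0.57, adjusted p = 0.00106 for Bglap), in which the levels went to 36.3 ± 2.84 and 17.2 ± 8.02 RPKM on day 21. Ibsp (bone sialoprotein) was at or below 0.691 RPKM in all 6 libraries (−0.03 ± 0.34, adjusted p = 0.986). Spp1 (osteopontin) measured 14.3, 16 and 20.8 RPKM on day 7 and 13.8, 22.8 and 27.7 on day 14 (0.41 ± 0.23, adjusted p = 0.445), with overlapping days, and Col1a1 gave 0.10 ± 0.27, adjusted p = 0.94. Runx2 and Vdr were at or below 0.448 and 0.212 RPKM and were not tested. The mineralization list had no call among 12 (limma; 3 at an unadjusted p below 0.05; 1 higher and 2 lower with the replicate block). Collagens had 1 of 23, Col6a1, which was lower (−0.38 ± 0.10, adjusted p = 0.0469) and lost its call in all 6 omissions. With the replicate block 5 collagens were lower, and of 15 genes of collagen processing 3 in place of 1.

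The 2 osteoblast-list genes that rose are signals. Bmp2, a bone morphogenetic protein, measured 0.392, 0.341 and 0.591 RPKM on day 7 and 5.02, 3.35 and 4.99 on day 14 (2.51 ± 0.19, adjusted p = 1.59e-06). The lowest day 14 library was several times the highest of day 7, and the rise was larger than the change in the step before (1.98 ± 0.33, adjusted p = 0.00117) and after (2.74 ± 0.33, adjusted p = 0.000656). Tnfsf11, the osteoclast-inducing RANKL, measured 6.02, 5.95 and 5.61 RPKM on day 7 and 8.71, 11 and 9.84 on day 14 (0.83 ± 0.22, adjusted p = 0.0424). The groups were apart, but the call was lost in all 6 omissions and without centring (adjusted p = 0.347). The gene of its decoy receptor, Tnfrsf11b, measured 16.1, 15.2 and 19 RPKM on day 7 and 7.33, 14.8 and 15 on day 14 (−0.36 ± 0.21, adjusted p = 0.449). Of 11 osteocyte genes tested, 2 rose, where 2.06% of all tested genes were higher. Gja1 (connexin 43, the gap junction protein of osteocyte processes) measured 268, 307 and 351 RPKM on day 7 and 305, 501 and 437 on day 14 (0.53 ± 0.13, adjusted p = 0.0183). The chemokine receptor gene Cxcr7 measured 4.33, 3.71 and 4.35 RPKM on day 7 and 6.04, 7.05 and 7.38 on day 14 (0.79 ± 0.18, adjusted p = 0.0158). Their calls were lost without centring (adjusted p = 0.539 and 0.117) and in 3 and 3 of the 6 omissions. Of the gap junction and dendrite list, Gjc1 (connexin 45) was lower (−0.68 ± 0.13, adjusted p = 0.00492), but not without centring (adjusted p = 0.0542).

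Among called genes with separate days and a mean of at least 5 RPKM on the higher day, Sfrp4 and Dio2 rose most. Sfrp4, a secreted inhibitor of Wnt signalling, measured 1.94, 1.66 and 1.43 RPKM on day 7 and 11.2, 14.4 and 14.3 on day 14 (2.79 ± 0.22, adjusted p = 1.59e-06). The change exceeded that of the step before (3.15 ± 0.37, adjusted p = 9.43e-05) and after (2.01 ± 0.37, adjusted p = 0.0131). Dio2, the deiodinase that activates thyroid hormone, measured 14.2, 11 and 14.3 RPKM on day 7 and 70.6, 84.3 and 73.1 on day 14 (2.62 ± 0.32, adjusted p = 9.12e-05). It had started from 0.564 ± 0.272 RPKM on day 3, and the difference between the 2 steps was not called (−0.97 ± 0.55, adjusted p = 0.27). For both genes the lowest day 14 library was several times the highest of day 7. Camk2n1, an inhibitor of calmodulin-dependent kinase II, measured 1.96, 1.52 and 2.73 RPKM on day 7 and 8.7, 8.61 and 10.6 on day 14 (2.08 ± 0.21, adjusted p = 1.43e-05). Enpp2 (autotaxin, which makes lysophosphatidic acid) measured 1.92, 1.19 and 1.01 RPKM on day 7 and 4.94, 4.42 and 8.05 on day 14 (1.87 ± 0.32, adjusted p = 0.00206). Aqp1, a water channel, measured 4.97, 7.04 and 8.11 RPKM on day 7 and 16.8, 25.1 and 25.3 on day 14 (1.79 ± 0.21, adjusted p = 7.48e-05), after a fall from 12.4 ± 0.857 RPKM on day 3. These calls held in each of the 6 omissions and without centring.

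Among the other large rises, D0H4S114 (RefSeq Nrep) measured 2.01, 5.75 and 5.92 RPKM on day 7 and 10.2, 32.2 and 33 on day 14 (2.42 ± 0.38, adjusted p = 0.001), with replicate 1 the lowest library on both days. Nbl1, a secreted BMP antagonist, measured 23.8, 28.2 and 33.8 RPKM on day 7 and 55.8, 95 and 114 on day 14 (1.69 ± 0.17, adjusted p = 1.64e-05). Fibin measured 1.89, 1.3 and 1.98 RPKM on day 7 and 4.49, 6.9 and 6.61 on day 14 (1.67 ± 0.16, adjusted p = 1.14e-05). In all 3 genes the days were apart, which the rule that named them required. G0s2, a lipase inhibitor, measured 1.61, 5.33 and 2.59 RPKM on day 7 and 6.72, 12.4 and 10.3 on day 14 (1.70 ± 0.34, adjusted p = 0.00599), and its call was lost without replicate 1 of both days (adjusted p = 0.0613). The metallothionein gene Mt1 measured 1.87, 1.93 and 1.74 RPKM on day 7 and 4.13, 7.22 and 7.65 on day 14 (1.63 ± 0.26, adjusted p = 0.00129). It lay higher on day 14 than on both neighbouring days, at 1.85 ± 0.0993 before and 2.21 ± 0.239 RPKM after, and both step differences passed (2.84 ± 0.46, adjusted p = 0.000861, and 2.72 ± 0.46, adjusted p = 0.00742). 1810011O10Rik (RefSeq Tcim) measured 8.8, 8.26 and 9.73 RPKM on day 7 and 21.6, 24.9 and 30.3 on day 14 (1.59 ± 0.44, adjusted p = 0.0468) and lost its call in all 6 omissions.

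**Figure D4:**
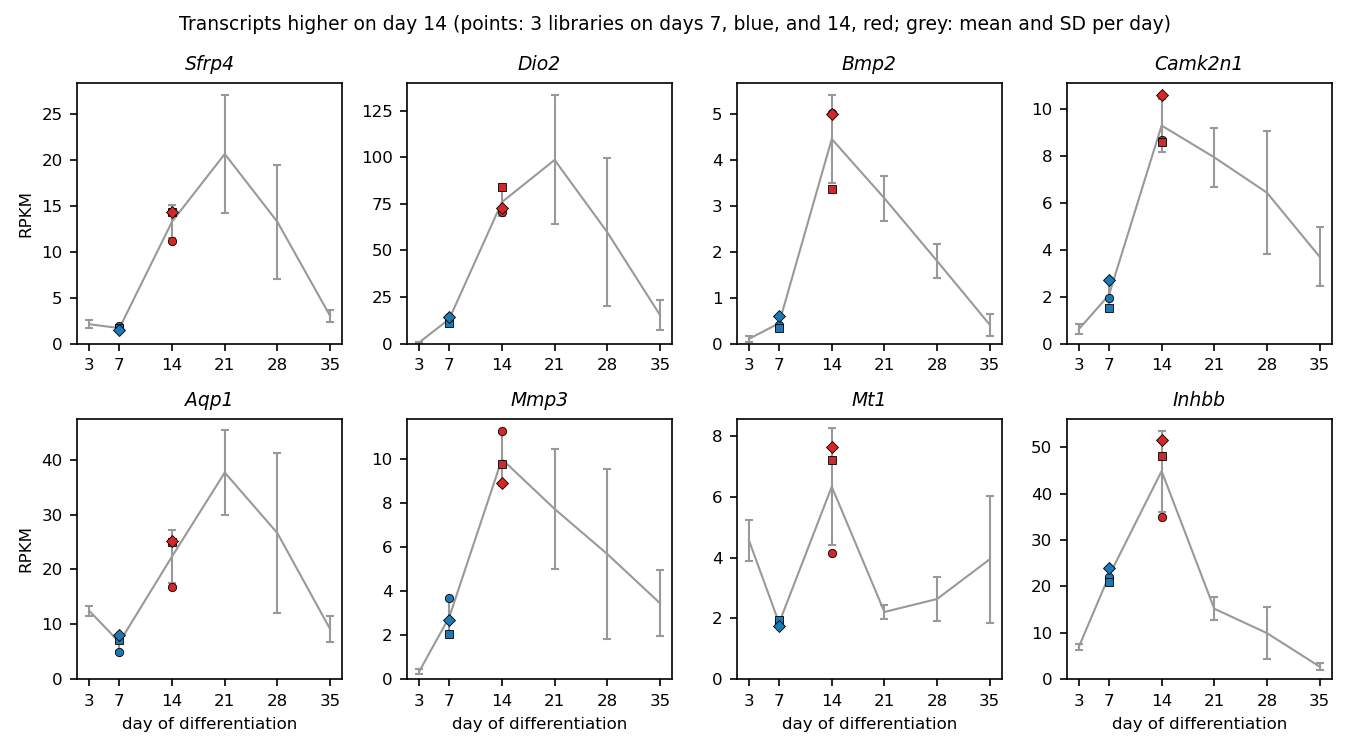
RPKM of 8 genes called higher on day 14 (y axes from 0) by day of differentiation (x axis), drawn with points for the libraries of days 7 and 14 and a grey mean ± SD line as in the plot of cell cycle genes. All day 14 points lie above all day 7 points, and the mean of Bmp2, Camk2n1, Mmp3, Mt1 and Inhbb is highest on day 14 of the 6 days.

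Several secreted signals rose. With the replicate block 4 secreted Wnt regulators rose and none fell, 6 BMP and TGF-β genes rose and 2 fell, and 5 IGF genes rose and 2 fell. Under that block 4.45% of all tested genes rose and 6.29% fell, and without it 2.06% and 3.32%. Without centring 1 gene of each of these lists was called higher, and 1 IGF gene lower. Of 11 secreted Wnt regulators 2 rose, Sfrp4 and Dkk2, which measured 28.4, 17 and 19.2 RPKM on day 7 and 44.7, 39.1 and 35.6 on day 14 (1.03 ± 0.28, adjusted p = 0.041). Of 13 Wnt ligands, receptors and targets 4 rose and none fell. The ligand gene Wnt10b measured 2.12, 2.46 and 3.27 RPKM on day 7 and 3.44, 5.69 and 6.03 on day 14 (0.94 ± 0.19, adjusted p = 0.0057). Wnt16 measured 0.53, 0.533 and 0.344 RPKM on day 7 and 1.05, 1.13 and 1.55 on day 14 (0.97 ± 0.20, adjusted p = 0.00784). Both had fallen in the step before and the difference passed (1.65 ± 0.33, adjusted p = 0.00361, and 2.09 ± 0.35, adjusted p = 0.00119). The receptor genes Fzd1 and Lrp6 changed by 0.55 ± 0.14 and 0.51 ± 0.13 (adjusted p = 0.0244 and 0.0221). Without centring no Wnt ligand or receptor was called, and Dkk2 was not either (adjusted p = 0.199). In the omissions of 1 library, Dkk2, Fzd1 and Lrp6 lost their calls in 4, 4 and 5 of 6, and Wnt16 in 1. Wnt16 also lost it without replicate 1 of both days (adjusted p = 0.0539).

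Of 30 BMP and TGF-β genes 3 rose: Bmp2, Inhbb and Gdf6. Inhbb, the activin B subunit, measured 21.9, 20.9 and 23.9 RPKM on day 7 and 35, 48.1 and 51.5 on day 14 (1.11 ± 0.21, adjusted p = 0.00402) and had a larger change than in the step after (2.43 ± 0.36, adjusted p = 0.00308). Its adjusted p without centring was 0.085. Gdf6 measured 2.78, 3.09 and 3.47 RPKM on day 7 and 3.51, 5 and 5.25 on day 14 (0.61 ± 0.17, adjusted p = 0.0482), lost in all 6 omissions. In the IGF list 3 of 15 rose and 1 fell. The binding protein gene Igfbp5 measured 9.43, 9.74 and 7.46 RPKM on day 7 and 12.6, 22.8 and 17.5 on day 14 (1.05 ± 0.17, adjusted p = 0.00136). Igfbp3 of the same family measured 1.76, 1.89 and 1.53 RPKM on day 7 and 4.26, 5.99 and 6.29 on day 14 (1.55 ± 0.27, adjusted p = 0.00243). Igf2r, the clearance receptor of IGF2, changed by 0.66 ± 0.12, adjusted p = 0.00267. Igfbp2 was the one that fell, at 2.65, 2.5 and 2.88 RPKM on day 7 and 0.724, 0.761 and 1.25 on day 14 (−1.06 ± 0.20, adjusted p = 0.00448). The ligand genes Igf1 (0.32 ± 0.37, adjusted p = 0.786) and Igf2 (−0.01 ± 0.15, adjusted p = 0.989) were not called. Igfbp5 and Igf2r were not called without centring (adjusted p = 0.0612 and 0.309).

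Of 23 matrix proteases and inhibitors 4 rose (median 0.26), 2 without centring and 9 with the replicate block. Among all tested genes 2.06% rose, 0.433% without centring and 4.45% with the block. Mmp3 (stromelysin) measured 3.71, 2.06 and 2.69 RPKM on day 7 and 11.3, 9.77 and 8.93 on day 14 (1.81 ± 0.31, adjusted p = 0.00185). Prss35, a secreted serine protease relative, measured 8.84, 8.62 and 10.6 RPKM on day 7 and 21.2, 27.8 and 26 on day 14 (1.49 ± 0.21, adjusted p = 0.000385). The days were apart in both. Ctsb (cathepsin B) changed by 0.65 ± 0.12, adjusted p = 0.0041 and Adamts1, an aggrecan-cleaving protease, by 0.50 ± 0.14, adjusted p = 0.0492. Ctsb was not called without centring (adjusted p = 0.404), and Adamts1 neither without centring nor in any of the 6 omissions.

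Of 15 genes of smooth muscle type contraction 3 fell, and 7 with the replicate block. Among all tested genes 3.32% fell, and 6.29% with the block. Tagln (transgelin) measured 56.8, 52.5 and 57.1 RPKM on day 7 and 12.5, 9.77 and 10.9 on day 14 (−2.16 ± 0.25, adjusted p = 7.22e-05). Acta2 (smooth muscle actin) measured 11.7, 11.4 and 13.6 RPKM on day 7 and 3.18, 6.11 and 6.13 on day 14 (−1.09 ± 0.19, adjusted p = 0.00185). The days were far apart in both. Actg2 changed by −1.23 ± 0.29, adjusted p = 0.0197, lost in 2 of 6 omissions and without replicate 1 of both days (adjusted p = 0.139). The median of this list was −0.66 within run 230 and −0.34 within run 247. Tnc, the matricellular protein tenascin C, measured 10.5, 11.1 and 12.1 RPKM on day 7 and 5.71, 7.65 and 6.09 on day 14 (−0.63 ± 0.13, adjusted p = 0.00717), and this change lay below that of the step after (−1.95 ± 0.22, adjusted p = 0.000643), with 14.6 ± 0.617 RPKM on day 21. Pcolce, the enhancer of procollagen cleavage, changed by −0.46 ± 0.12, adjusted p = 0.0301, with the call lost in 5 of 6 omissions. Tnc and Pcolce were not called without centring (adjusted p = 0.0522 and 0.293). Postn and Dcn, both matrix proteins of connective tissue, were not called (−0.25 ± 0.11, adjusted p = 0.242, and −0.13 ± 0.16, adjusted p = 0.79).

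Immediate-early genes, which had dropped from day 3 to 7 (22 of 27 called lower in that step, against 15% of all genes), gave 2 rises and 2 falls of 27 here (median −0.10). Ctgf, a target of mechanical and TGF-β signals, measured 10.3, 10.7 and 8.64 RPKM on day 7 and 2.97, 4.82 and 6.64 on day 14 (−0.89 ± 0.18, adjusted p = 0.00525), after 238 ± 23 RPKM on day 3. Without replicate 1 of both days its adjusted p was 0.106. Dusp6, a phosphatase that shuts off ERK, changed by −0.68 ± 0.12, adjusted p = 0.002. Dusp1 (0.62 ± 0.17, adjusted p = 0.0426) and Nr4a1 (0.63 ± 0.17, adjusted p = 0.0429) were higher, with calls lost in 5 and 5 of the 6 omissions. Without centring Dusp6, Dusp1 and Nr4a1 were not called (adjusted p = 0.0761, 0.38 and 0.381).

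Metabolic lists were mostly level. Respiratory chain (23 tested), cholesterol synthesis (21), endoplasmic reticulum chaperone (22) and ribosomal protein genes (26) gave no call by limma, with medians from −0.11 to 0.04. At an unadjusted p below 0.05 were 0, 1, 2 and 3 of their members in this order, and with the replicate block 0, 0, 2 and 2 were called. Of 20 glycolysis and hypoxia genes 2 rose, Aldoc (1.27 ± 0.29, adjusted p = 0.014) and Pdk1 (0.75 ± 0.18, adjusted p = 0.0235), both at or below 2.2 RPKM in all 6 libraries and lost in 3 and 4 of 6 omissions. Odc1, the first enzyme of polyamine synthesis, measured 9.43, 8.36 and 9.48 RPKM on day 7 and 4.62, 3.99 and 3.95 on day 14 (−0.91 ± 0.20, adjusted p = 0.0124) and was lost in 3 of 6. Psat1 of serine synthesis changed by −0.89 ± 0.23, adjusted p = 0.034 and was lost in all 6.

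Markers of other cell types gave no call. No skeletal muscle, endothelial or lymphoid gene passed the filter. Of the adipocyte (6 tested), chondrocyte (7), tendon (5), macrophage and osteoclast (3) and epithelial lists (1) no gene was called by limma or under the replicate block, with 0, 2, 1, 1 and 1 at an unadjusted p below 0.05 in this order. The fat cell regulator Pparg measured 1.22, 1.01 and 1.28 RPKM on day 7 and 0.441, 0.978 and 0.575 on day 14 (−0.41 ± 0.24, adjusted p = 0.45). The cartilage factor Sox9 measured 6.27, 6.87 and 6.96 RPKM on day 7 and 3.85, 6.8 and 5.03 on day 14 (−0.23 ± 0.21, adjusted p = 0.68). The summed RPKM of the macrophage and osteoclast list was 61.6 to 66.1 on day 7 and 54.5 to 80.1 on day 14.

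Some of the strongest differences between steps came from the step before. Nr4a1 (4.31 ± 0.30, adjusted p = 1.09e-06), Dusp1 (3.86 ± 0.29, adjusted p = 1.75e-06) and Ctgf (3.74 ± 0.31, adjusted p = 2.52e-06) had higher changes in the second week than from day 3 to 7, as did 6.59% of all genes. So had Uhrf1bp1l (2.80 ± 0.23, adjusted p = 2.52e-06) and Csrnp1 (2.78 ± 0.23, adjusted p = 2.52e-06), which were not called in the second week itself (0.27 ± 0.14 and −0.06 ± 0.13). Lower changes than in the step before were those of Spry1, an inhibitor of receptor tyrosine kinase signals (−3.24 ± 0.23, adjusted p = 1.09e-06), LOC100503439 (−3.11 ± 0.26, adjusted p = 2.52e-06), Sall2 (−2.35 ± 0.19, adjusted p = 2.52e-06) and Sac3d1 (−1.70 ± 0.20, adjusted p = 8.58e-05). Their changes in the second week, −0.25 ± 0.13, 0.25 ± 0.15, 0.03 ± 0.11 and −0.36 ± 0.12, were not called, though that of Sac3d1 was with the replicate block (adjusted p = 0.0421). Lrp12, a membrane protein of the LDL receptor family, measured 5.66, 4.06 and 5.25 RPKM on day 7 and 10.1, 14.6 and 12.2 on day 14 (1.35 ± 0.21, adjusted p = 0.000789), a higher change than in the step after (2.27 ± 0.36, adjusted p = 0.00491), as had 0.312% of all genes. Gprin3 measured 7.22, 7 and 7.36 RPKM on day 7 and 3.4, 4.64 and 3.06 on day 14 (−0.76 ± 0.15, adjusted p = 0.0047), a lower change than in the step after (−2.40 ± 0.26, adjusted p = 0.000343). A locus listed as LOC100502793, for which the reference tables give no name, had the smallest adjusted p of the week. It measured 80.6, 80.4 and 82.2 RPKM on day 7 and 18.7, 26 and 27.6 on day 14 (−1.62 ± 0.10, adjusted p = 4.44e-07). Ugcg, which makes glucosylceramide, had a higher change than in the step after (1.78 ± 0.29, adjusted p = 0.00576) and was not called in the second week (0.49 ± 0.17, adjusted p = 0.113).

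**Figure D5:**
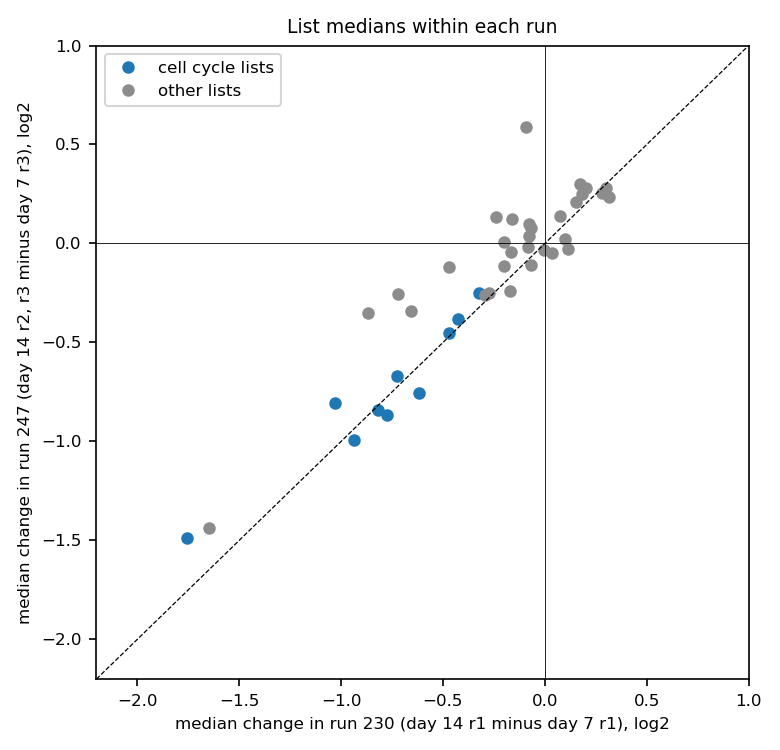
Median change of each gene list with at least 3 tested members between day 7 and day 14, within run 230 (x axis, replicate 1 of both days) and within run 247 (y axis, day 14 replicates 2 and 3 minus day 7 replicate 3), with cell cycle lists in blue, other lists in grey and a dashed line of equality. The cell cycle lists lie near the line on the negative side, from −1.75 and −1.49 for the histones, and the interferon-stimulated genes lie above it at −0.87 and −0.35.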

How the data were processed

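The authors deposited 1 table per library with 30901 rows, a gene symbol and a value without a stated unit. The deposited values were read as RPKM, normalized by the authors to gene length and library size, from their size and sums. TopHat and the mouse build mm9 are named in the submitters' processing notes. The counting method is not given in the sources used here. For 3468 of 25520 symbols with several rows, the row with the highest mean was kept. Values were taken as log2(RPKM + 0.5) and centred on each library's median. Genes that reached 1 RPKM in fewer than 3 of the untreated libraries were left out, which left 9933. All 18 untreated libraries entered limma 3.58.1 (R 4.3.3) with a trended prior and 12 residual degrees of freedom, and p-values were adjusted by Benjamini and Hochberg. The fit was also tried on simulated libraries with independent noise and no run or ribosomal share differences, so that trial does not cover these. Differences between steps were contrasts of the same fit. The labels number replicates 1 to 3 on both days. Deviations of same-numbered libraries had correlations of 0.554, 0.160 and 0.276. Those of day 7 replicate 2 with day 14 replicate 3 and the reverse were 0.275 and 0.256, so only replicate 1 stood apart by its number. A replicate block is given as an alternative. Replicate 1 is in run 230 on every untreated day, so for it the block cannot be told apart from that run. Genes were named by a rule: the 12 largest changes in each direction above 5 RPKM, up to 4 called members of each of 46 lists, listed genes whatever their result, and the 5 smallest adjusted p per direction of each step difference. The 12 largest were taken among called genes whose days did not overlap, so that separation is no support for them. Members and lists were chosen with earlier results of these data known. Near-identical gene copies can share reads. Alternatives covered scaling, pseudocount, filter, run, block and single libraries. Hormone-treated libraries were not used. One named result is not reported here.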

Additional observations from a re-analysis of the deposited data

How the results depend on the processing

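The counts of 205 higher and 330 lower genes kept within 1.5 times under quantile normalization, pseudocounts of 0.1 and 1, a filter of 5 RPKM and summed rows per symbol. The higher count was 43 without centring (242 lower) and 117 with no filter. With only the 6 libraries fitted, 112 were higher and 198 lower, which leaves fewer samples for the spread. Within run 247 alone, 89 were higher and 113 lower. With the run as a term 415 were higher and 569 lower, and with the replicate block 442 and 625. The block ended no call of a named gene and added 8. Leaving out replicate 1 of both days, chosen after seeing the data, gave 100 higher and 169 lower. Leaving out 1 library at a time gave 112 to 146 higher and 218 to 247 lower. Of 107 named genes with a call, 79 kept it in all 6 such omissions, 28 lost it without replicate 1 of both days, and 27 lost it without centring (19 of 35 higher and 8 of 72 lower). With only the 6 libraries fitted by limma, 26 named genes lost their call and 2 gained one. Among those lost were Tnc, Ctgf, Gprin3 and Nlrc5 (adjusted p = 0.0589, 0.06, 0.0707 and 0.0942), whose calls therefore rest on the spread shared with the other days. No named gene changed direction with a call.

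The tests between steps moved more. Against the step before (655 higher, 738 lower), counts were 226 and 299 without centring and 1048 and 1643 with the run term, and the replicate block gave 1541 lower. Omitting 1 library gave 366 to 644 higher and 363 to 689 lower, with the fewest calls without day 7 replicate 2 (366 and 377) or replicate 3 (374 and 363) and 469 lower without day 7 replicate 1. Against the step after (31 higher, 72 lower), counts were 4 and 7 without centring, 118 and 225 with the replicate block and 132 and 239 with the run term. Omitting 1 library gave 6 to 40 higher and 20 to 74 lower, with the fewest without day 14 replicate 2 (6 and 20) or replicate 1 (9 and 28). Here each omission but that of day 21 replicate 1 moved the higher count by over 1.5 times, and replicate 2 of day 7 or of day 21 moved the lower count to 46 or 44. The cause of these shifts was not tested. Depth is unknown, so no detection limit can be given for genes near 0 RPKM.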

Other observations

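Genes outside the lists were also read from the 535 calls. Those named here were chosen after their values were seen. Lmnb1, which codes for lamin B1, measured 3.74, 3.48 and 3.51 RPKM on day 7 and 0.534, 1.37 and 2.04 on day 14 (−1.13 ± 0.21, adjusted p = 0.00347), and its days did not overlap. Lmnb2, Tmpo and Lbr, which code for lamin B2, the lamina-associated polypeptide 2 and the lamin B receptor, changed by −0.86 ± 0.17, −0.66 ± 0.10 and −0.66 ± 0.16 (adjusted p = 0.00474, 0.000651 and 0.019). Without replicate 1 of both days the adjusted p of Lmnb1, Lmnb2 and Lbr was 0.0712, 0.0519 and 0.205, and Lbr also missed the threshold without centring (adjusted p = 0.0533). Mxd3, a partner of Max, measured 3.8, 6.29 and 7.37 RPKM on day 7 and 1.46, 1.38 and 0.793 on day 14 (−1.73 ± 0.29, adjusted p = 0.00173). The histone chaperone gene Asf1b changed by −1.21 ± 0.28, adjusted p = 0.016. Slbp codes for the protein that binds the stem-loop of replication-dependent histone mRNAs. It changed by −0.61 ± 0.16, adjusted p = 0.037, with adjusted p = 0.0781 without replicate 1 of both days and 0.188 without centring.

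Hlf, a transcription factor of the PAR bZIP family, rose from 0.131, 0.051 and 0.061 RPKM to 0.906, 3.08 and 2.34 (2.19 ± 0.26, adjusted p = 7.78e-05). All day 7 libraries were near 0, and all day 14 libraries were above them. The related genes Dbp (0.88 ± 0.31, adjusted p = 0.136) and Tef (−0.11 ± 0.21, adjusted p = 0.901) and the clock genes Nr1d1 (0.33 ± 0.11, adjusted p = 0.119) and Per3 (0.02 ± 0.17, adjusted p = 0.985) were not called. Slc40a1, the iron exporter ferroportin, measured 0.858, 1.21 and 1.07 RPKM on day 7 and 3.53, 3.51 and 2.43 on day 14 (1.36 ± 0.20, adjusted p = 0.000455), with all day 14 libraries higher. The ferrireductase genes Steap3 and Steap4 rose by 0.95 ± 0.15 and 1.01 ± 0.14 (adjusted p = 0.00103 and 0.000372). Steap4 missed the threshold without centring (adjusted p = 0.0505). Tfrc, the transferrin receptor, was lower at 6.53, 8.92 and 10.6 RPKM on day 7 and 2.21, 4.85 and 4.82 on day 14 (−0.96 ± 0.24, adjusted p = 0.0258), a call lost without replicate 1 of both days (adjusted p = 0.103). The ferritin genes Fth1 and Ftl1 were not called (adjusted p = 0.846 and 0.572).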
